A study of Homo sapiens and Mus musculus with 47 samples.

Results

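The reader-free control libraries of Neuro-2a and NIH3T3 cells are compared here, 6 of the 47 libraries in the series, chosen by their labels: 3 controls of each mouse line, joined gene by gene. Chrom-seq places a peroxidase, APEX2, at a chromatin mark by means of a reader domain and lets it attach biotin-aniline to nearby RNA. The RNA caught on streptavidin is then selected for poly(A) tails and sequenced from random primers. The control cells of both lines carried no reader: they co-expressed a GCN4 peptide array and the antibody fragment scFv fused to APEX2, for 48 h, and then received 500 µM biotin-aniline for 30 min and 1 mM H2O2 for 1 min. The question was how APEX2-labelled RNA differs between a neuroblastoma and a fibroblast line when no reader directs the labelling. Neuro-2a is a mouse neuroblastoma line, a tumour of the sympathetic nerve lineage, and NIH3T3 a mouse embryonic fibroblast line. No genotype beyond the line is given, and each cell type is represented by 1 established line. In the plasmids a chicken beta-actin promoter drove scFv-APEX2 and a CMV promoter the GCN4 array. How the mouse lines were transfected is not given in the sources used here, which describe that step for HEK293T cells.

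Sympathetic neuroblasts come from the neural crest and are driven by transcription factors such as PHOX2A, HAND2 and GATA3, which switch on the machinery for catecholamine storage, axons and synapses. Fibroblasts make the collagen-rich matrix of connective tissue, pull on it with actin stress fibres, and answer stiffness through the coactivators YAP and TAZ and their TEAD partners. Neuronal genes are held down in cells outside the nervous system by the repressor REST, which binds a motif called RE1.

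The libraries held 11045737 to 13317137 counts in Neuro-2a and 16013327 to 17558305 in NIH3T3, and replicates of a line differed by a common biological coefficient of variation of 0.0773. Values are CPM, counts per 1000000 of the TMM-scaled library total, given for replicates 1 to 3 or as mean ± SD over 3 libraries. Calls required a Benjamini-Hochberg adjusted p under 0.05 in edgeR's quasi-likelihood test together with a change of 0.75 or more, either way, on the log2 scale (Neuro-2a minus NIH3T3). Of 18433 genes tested, 9539 were called, or 51.7%: 4647 higher in Neuro-2a (25.2%) and 4892 lower (26.5%). The gap was often one of presence, since 656 of the higher genes had no count in any NIH3T3 library and 825 of the lower genes none in any Neuro-2a library. For these a fold is given as a lower bound, against a floor of 3 counts per library, and the median of a gene list is the median log2 fold change of its tested members, given again with such genes at their bound where that differs. The lines were in separate tables and no library holds both, so that line, culture and library batch cannot be told apart. No RNA from before the streptavidin step was used for these lines, so a difference in abundance and a difference in labelling cannot be told apart either. Likewise fewer cells and less RNA per cell cannot be told apart in bulk RNA. The study calls its replicates independent but does not say whether those of a line were separate cultures, so the p-values measure the spread between these libraries, which may be technical.

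Markers of the labelled cell types separated the lines, but they were chosen with earlier results of these data known and are no independent check. Of 12 sympathetic neuroblast markers 11 were called higher in Neuro-2a, and of 12 fibroblast markers 11 were called lower. The exceptions were Tubb3, the neuronal tubulin, which had no count in either line, and Fap, a fibroblast surface protease, which was not tested, at 0.0431 CPM in NIH3T3. The whole span of Tubb3 lies within other genes on the same strand, and of 519 protein-coding genes placed like that 510 had no count in any of the 6 libraries (98.3%). Among 674 genes wholly covered on the other strand only, 29.4% had no count, and among 11779 free of any other gene 29.2%. Genes whose span is wholly shared on their own strand thus had almost no counts, and some of those in the lists are named as such. Partly shared genes could keep counts: Gm38393, with 78.7% of its span shared, was at 25.2 CPM in Neuro-2a and 6.25 in NIH3T3.

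**Figure D1:**
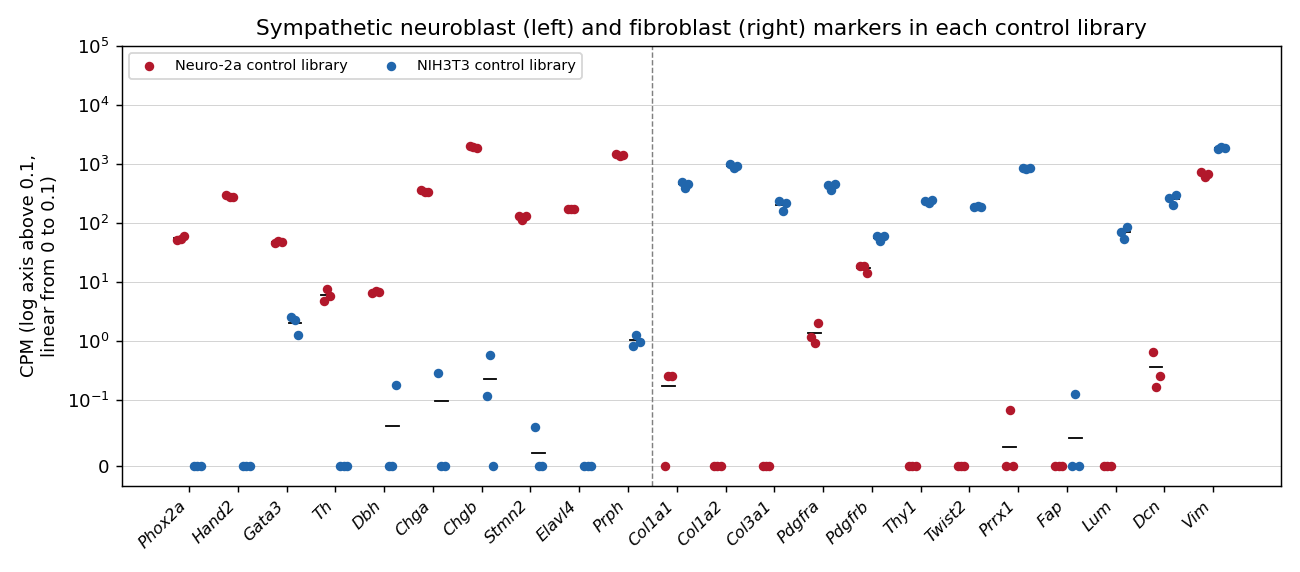
CPM of sympathetic neuroblast markers (left of the dashed line) and fibroblast markers (right) in each of the 6 control libraries, as points with black bars at the mean of 3, on a log axis above 0.1 and a linear one from 0 to 0.1. Hand2 stood at 304, 278 and 279.5 CPM in Neuro-2a and at 0 in all NIH3T3 libraries, and Col1a2 at 989.9, 868 and 943 CPM in NIH3T3 and at 0 in all Neuro-2a libraries.

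Transcription factors of the sympathetic lineage stood out among the Neuro-2a genes. Of 24 such genes 21 were tested, and 14 were called higher, 5 lower and 2 not, with a median log2 fold change of 4.54, against -0.04 over all tested genes (4.42 with genes absent from 1 line at their bound). Hand2, the basic helix-loop-helix factor of the sympathetic chain, was at 304, 278 and 279.5 CPM in the Neuro-2a libraries and had no count in NIH3T3, at least 1554-fold higher. Its neighbour Hand2os1, a divergent noncoding transcript, was at 138, 157 and 155 CPM and also without a count in NIH3T3. Phox2a, a homeobox factor that specifies noradrenergic neurons, was at 55.8 ± 5.02 CPM (SD, n = 3), with no NIH3T3 count. Satb1, a chromatin organizer, was at 202, 207 and 209 CPM, and was again absent from NIH3T3. Gata2, a zinc-finger factor of the same lineage, was shared but unequal, at 193, 187 and 197 against 14.6, 18.3 and 12.9 CPM, and no library of one line overlapped the other. The neuroblastoma oncogene Mycn reached 29.6 CPM against 2.37. Lmo1, a LIM-only cofactor tied to neuroblastoma, reached 63.6 against 0.

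Not every lineage factor followed the label. Tfap2a, a neural crest factor, was at 60.00, 52 and 51.6 CPM in NIH3T3 and at 0 in Neuro-2a, at least 223-fold lower there. Tbx3 was at 66.5, 53.8 and 55.9 CPM in NIH3T3 and at 0.218, 0.0853 and 0 in Neuro-2a. Meis2, a homeobox cofactor, was lower by less, 107 ± 6.53 against 213 ± 3.75 CPM (log2 fold change -0.99, SE 0.0588). Sox4 did not pass, at 320.4 ± 11.7 against 396 ± 19.3 CPM.

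The enzymes of catecholamine synthesis were present at low levels. Of 15 genes of catecholamine handling 12 were tested, with 5 higher, 2 lower and 5 not called (median 1.13). Th, tyrosine hydroxylase, the rate-limiting enzyme, was at 4.79, 7.76 and 5.92 CPM in Neuro-2a with no NIH3T3 count, and Dbh, which makes noradrenaline from dopamine, at 6.68, 6.99 and 6.71 against 0, 0 and 0.184. Ddc, the decarboxylase between them, did not pass by a little, at 0.435 CPM in Neuro-2a against 0.0824 (adjusted p = 0.0514 in edgeR). Higher levels were seen for Slc18a2, the vesicular monoamine transporter, at 27.4, 22.4 and 25.9 against 0.65, 0.323 and 0.551 CPM, and for Gch1, which makes the cofactor of tyrosine hydroxylase, at 69.2, 69.4 and 79.8 against 4.78, 5.75 and 4.29. Maoa, which degrades catecholamines, ran the other way, at 48, 58.7 and 54.3 CPM in NIH3T3 and 0 in Neuro-2a. Of 17 cholinergic genes 10 were tested, 8 higher and 1 lower (median 2.38). The receptor genes led them: Chrna3, the ganglionic nicotinic subunit, stood at 135, 139.5 and 134 CPM against 0, 0 and 0.245. Chrm3, a muscarinic receptor, stood at 108, 118 and 108 against 0, 0.0646 and 0.0612. Chat and Slc5a7, for acetylcholine synthesis and choline uptake, were not tested, at 0.155 and 0 CPM in Neuro-2a.

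Secretory granule genes held some of the largest differences. Chgb, chromogranin B, a core protein of dense granules, was at 2019.7, 1978 and 1889.8 CPM in Neuro-2a and 0.118, 0.581 and 0 in NIH3T3, with a log2 fold change of 13.03 (SE 0.144, adjusted p = 1.13e-27 in edgeR). Chga followed at 362, 335 and 336 CPM against 0.295, 0 and 0, and Scg2 at 263, 233 and 265 against 1.83, 1.16 and 1.78. Scg3, a granule sorting protein, was at 234, 243 and 249 CPM with no NIH3T3 count. Over 17 tested genes of this list, 11 were higher and 3 lower (median 6.35, or 4.97 at the bound). The 3 lower genes were present in both lines: Cpe, which trims peptide precursors, at 75.7 ± 7.22 against 236 ± 2.72 CPM, Ptprn, a granule membrane phosphatase relative, at 197 ± 4.92 against 401 ± 11.6, and Pam, which amidates peptides, at 94.2 ± 2.76 against 179 ± 5.79. The neuropeptide genes Tac1, Sst and Adcyap1 had no count in either line.

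The neuronal cytoskeleton moved almost as a block, with 20 of 23 tested genes higher, none lower and 3 not called (median 4.80). Map1b, a microtubule protein of growing axons, had the greatest rise in CPM of all genes, from 729.5, 746 and 710.2 in NIH3T3 to 8367, 8957 and 8444 in Neuro-2a. Prph, peripherin, the neurofilament of peripheral neurons, rose from 0.827, 1.29 and 0.98 to 1477, 1373 and 1421 CPM (log2 fold change 10.43, SE 0.0934). Dpysl3, a collapsin response mediator, rose from 122, 123 and 115 to 1371, 1357 and 1386. Every Neuro-2a library lay above every NIH3T3 library for these 3 genes. Uchl1, a neuronal ubiquitin hydrolase, was at 253, 218 and 252 CPM with no NIH3T3 count. Map1a did not pass, at 389 ± 12.2 against 505 ± 17.4 CPM. Tubulins were mixed, with 5 of 12 tested higher and 2 lower (median 0.63): Tubb2b, a neuronal isotype, was at 53.2 ± 6.54 against 11.6 ± 0.706 CPM and Tubb6 at 31.9 ± 2.08 against 112 ± 3.99. Nefl and Kif1a, a neurofilament and an axonal kinesin, were at 0 in every Neuro-2a library, where Nefh, another neurofilament, reached 176 CPM.

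Synaptic release genes were higher in 22 of 28 tested, with 1 lower and 5 not called (median 3.91). Sv2c, a synaptic vesicle glycoprotein, had the largest fitted rise of any gene under the naming rule, at 913, 1002 and 917 CPM in Neuro-2a without a count in NIH3T3, at least 5105-fold. Syt1, the calcium sensor of release, was at 537, 621 and 559 against 0.236, 0.129 and 0.184 CPM. Rims2, an active zone scaffold, was at 693, 806 and 744 against 29.6, 25.3 and 21.7. Rab3b was the exception, at 0.624 against 2.06 CPM, and Nsf, which every secreting cell needs, did not pass, at 131 ± 9.81 against 161 ± 6.16. Among sodium and calcium channels, 13 of 22 tested were higher and 3 lower (median 2.03). Scn8a, a neuronal sodium channel, was at 225, 254 and 227 against 0, 0 and 0.0612 CPM, and Cacna1b, the N-type calcium channel, at 156, 172 and 168 against 0.354, 0.129 and 0.245. Cacna1c, the L-type channel, was lower in Neuro-2a, at 489 ± 54.3 against 1045 ± 58.6 CPM, and its partner Cacna2d1 was at 0.26 against 117.

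Other genes in the 10 largest rises were surface and signalling proteins with no count in NIH3T3. Cadm1, a cell adhesion molecule, was at 454, 482 and 439.6 CPM. Ngfr, the p75 neurotrophin receptor, was at 225, 314 and 308, with replicate 1 the lowest. Dscaml1, Unc79, Arfgef3 and Clvs1 lay between 219.6 and 295 CPM on average. Their lower bounds ran from 1188-fold for Clvs1 to 2481-fold for Cadm1. Akap12, a kinase scaffold, was among the greatest rises in CPM, from 36.1, 32.7 and 27.5 to 1285, 1324 and 1266.

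Splicing regulators leaned towards Neuro-2a. Of 24 tested RNA-binding genes 13 were higher, 3 lower and 8 not called (median 0.98). Srrm4, which drives neuronal microexons, was at 323, 360.3 and 350.2 against 10.6, 10.6 and 12.4 CPM. Celf4 was at 252, 305 and 251 against 0.768, 1.74 and 1.16, and Elavl3, a neuronal Hu protein, at 225, 235 and 223 against 3.37, 4.26 and 1.96. Celf2, of the same family as Celf4, went the other way, at 0.29, 0.171 and 0.784 against 362, 355 and 333 CPM. Ptbp1 and Ptbp2, whose exchange marks neuronal maturation, were not called, at 208 and 157 CPM in Neuro-2a and 279 and 193 in NIH3T3. Among BAF chromatin remodelling subunits 7 of 15 were higher (median 0.74), including the neuronal ones Actl6b (18.7 against 0 CPM), Dpf1 (31.7 against 4.41) and Dpf3 (138 against 9.12). Actl6a, the non-neuronal counterpart of Actl6b, was not called, at 55.2 ± 6.83 against 59 ± 1.2 CPM, and Smarcd3 was lower.

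Rest, the repressor of neuronal genes, was lower in Neuro-2a, at 29.1, 26.8 and 27 CPM against 217, 216 and 225 in NIH3T3 (log2 fold change -2.99, SE 0.0677, adjusted p = 4.53e-22 in edgeR), and no libraries of the lines overlapped. Its partners were not lower as a group: of 11 genes of REST and its corepressors, 3 were higher, 2 lower and 6 not called (median 0.03). Over all tested genes 25.2% were higher and 26.5% lower. Kdm1a, a histone demethylase, was at 135 ± 4.91 against 37.1 ± 3.64 CPM, and Rcor2, a scaffold, at 62.9 ± 3.41 against 22.1 ± 1.8. Sin3b was lower, at 21.5 against 84.2. Since neuronal genes moved together, the RE1 motif was searched on both strands from 1000 bases before to 500 after the start of each protein-coding gene, as a pattern of 17 letters with no mismatch. A match was found for 33 of 21846 genes (0.151%), for 16 of 3744 called higher in Neuro-2a (0.427%), for 3 of 3516 called lower (0.0853%) and for 4 of 6948 not called (0.0576%). The matches in 6 of the higher genes are shown because they are copies of the element that REST is known to read, with the motif in capitals with 4 flanking bases on each side, on the strand that carries the motif (GRCm38, RefSeq sequence).
Chga, chr12:102555234-102555258, plus strand: aggaTTCAGCACCTCGGACAGcacc
Scn2a, chr2:65619960-65619984, plus strand: ggctTTCAGCACCACGGACAGcacc
Chrnb2, chr3:89764454-89764478, minus strand: cggcTTCAGCACCACGGACAGcgct
Cplx2, chr13:54371724-54371748, minus strand: tcccTTCAGCACCACAGCGAGcggg
Gria2, chr3:80802985-80803009, plus strand: cgatTTTAGCACCGCGGACAGcgct
Grin1, chr2:25319014-25319038, minus strand: acgcTTCAGCACCTCGGACAGcacc
The 6 genes shown are neuronal: Chga was described above, Scn2a is a sodium channel, Chrnb2 a nicotinic receptor subunit, Cplx2 a regulator of vesicle fusion, and Gria2 and Grin1 glutamate receptor subunits. Gria2 was at 43.9, 47.2 and 39.9 CPM in Neuro-2a and 0.0591, 0 and 0.0612 in NIH3T3, Grin1 at 66.2, 62.3 and 60.3 and 5.73, 5.1 and 5.82, and Scn2a at 62.5, 62.3 and 55.4 and 4.31, 5.94 and 4.29. Chrnb2 was at 38.2, 35.3 and 36.6 against 8.03, 10.01 and 7.9 CPM, and Cplx2 at 269, 263 and 274 against 48.3, 40.8 and 50.9. These 6 were picked from the 16 higher genes with a match, so both their direction and their neuronal function were fixed by that choice. Gria2 and Chga were near 0 in NIH3T3, while Cplx2 was not. The 3 lower genes with a match were Pik3r5, a subunit of a PI3-kinase, at 0 against 45.7 CPM, Nbeal1 at 46.2 against 149, and Cntnap2, a neuronal adhesion protein of the neurexin family, at 0.99 against 3.56. The matches lay from -807 bases relative to the gene start, upstream of Scn2a, to 379 bases after it in Cplx2. A match is a description of the sequence, and binding was not measured.

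**Figure D2:**
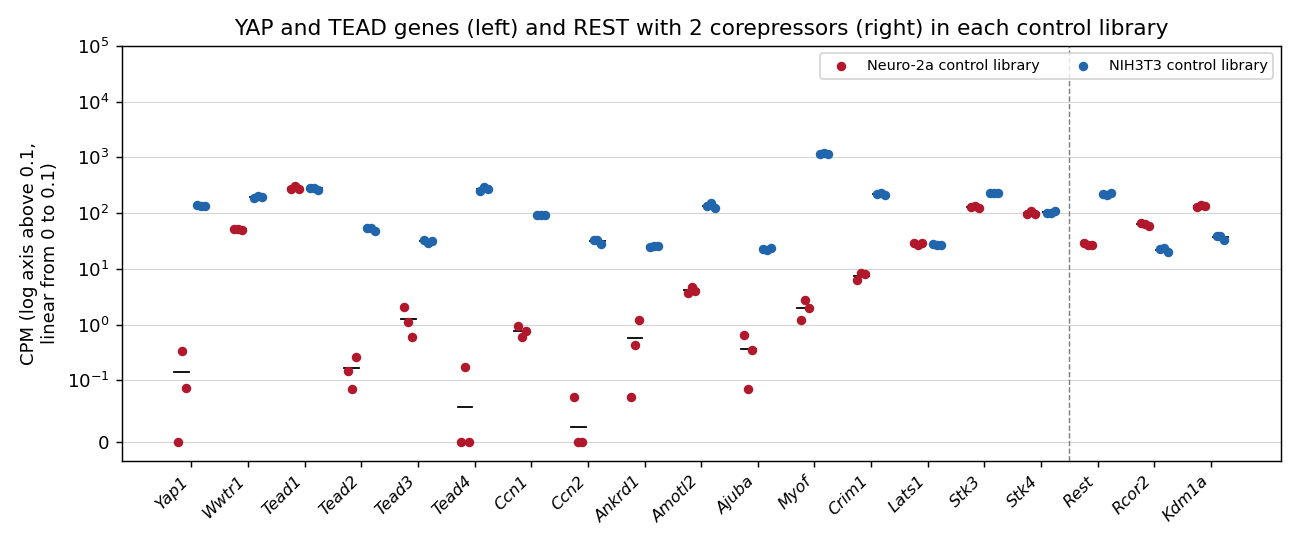
CPM of YAP and TEAD genes (left of the dashed line) and of Rest with its corepressors Rcor2 and Kdm1a (right) in each control library, on a log axis above 0.1 and a linear one from 0 to 0.1, with black bars at the mean of 3. Yap1 and Tead4 lay near 0 in Neuro-2a and at 138 and 271 CPM in NIH3T3, while Tead1 lay at 284 and 277.

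The fibroblast side was as sharp. Of 27 mesenchymal genes 21 were tested, 19 of them lower in Neuro-2a and 2 higher, with a median log2 fold change of -8.06 (-5.31 with absent genes at their bound). Prrx1, a homeobox factor of limb and connective tissue, was at 859, 840.0 and 842 CPM in NIH3T3 and 0, 0.0853 and 0 in Neuro-2a. Thy1, a fibroblast surface protein, was at 234, 220.4 and 244 CPM with no Neuro-2a count, at least 951-fold lower. Pdgfra, the receptor that defines many fibroblasts, was at 439, 357 and 456 against 1.16, 0.938 and 2. Vim, vimentin, was the least specific of these, at 1806, 1947 and 1888 CPM in NIH3T3 and still 722, 615 and 671 in Neuro-2a. Dpp4, a fibroblast peptidase, was higher in Neuro-2a, at 14.7, 18.6 and 15 against 0, 0.71 and 0 CPM, and so was Eng, a TGF-beta coreceptor, at 15.2 against 3.22. Tcf21 had no count in either line, and Meox1, Meox2 and Nt5e were under 0.5 CPM in both.

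Collagen genes were lower in 22 of 29, higher in 3 and not called in 4 (median -3.41, or -2.20 at the bound). Col1a2 was at 989.9, 868 and 943 CPM in NIH3T3 and Col6a3 at 979.8, 939 and 909, and neither had a Neuro-2a count, at least 3811-fold and 3848-fold lower. Col5a1 and Col3a1 were also absent, against 480.5 and 205 CPM. Col1a1, the partner chain of Col1a2 in type I collagen, was at 0, 0.256 and 0.261 against 500.3, 398 and 459. The enzymes that hydroxylate collagen were nearer to each other: P4ha1 was not called, at 108 ± 5.53 against 120.0 ± 4.69 CPM, nor were Plod1, Plod2 and Plod3. P4ha2 was higher in Neuro-2a, at 121 ± 6.44 against 33.7 ± 5.38. The lysyl oxidases divided between the lines: Lox, which crosslinks collagen, was at 294, 228 and 322 CPM in NIH3T3 and 0.145, 0 and 0 in Neuro-2a, and Loxl2 was the reverse, at 156, 129 and 151 CPM in Neuro-2a and 0.0591, 0 and 0 in NIH3T3.

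Matrix glycoproteins were lower in 22 of 30 tested and higher in 5 (median -3.53, or -3.0 at the bound). Fn1, fibronectin, fell from 5624, 5256 and 5501 CPM in NIH3T3 to 338, 355 and 327 in Neuro-2a (log2 fold change -4.01, SE 0.0497), among the 5 greatest falls in CPM. Vcan, versican, fell from 1584, 1528 and 1592 to 18.3, 22 and 14.9, and Nid1, a basement membrane linker, from 1466, 1411 and 1449 to 0.145, 0.0853 and 0. Thbs2, an adhesion glycoprotein, was at 957, 784 and 966 CPM with no Neuro-2a count. Neuro-2a had a matrix set of its own: the laminin chain Lama4 was at 337, 356 and 335 against 36.7, 29.4 and 36.6 CPM, Lama5 at 70.8 ± 4.74 against 0.857 ± 0.536, and the elastic fibre protein Fbln1 at 160.3 ± 5.09 against 0.203 ± 0.0847. Gpc6, a glypican, was not called, at 556 ± 53.8 against 538 ± 30.3. Among proteases and their inhibitors 17 of 23 were lower and 2 higher (median -3.43). Ctsl, a lysosomal cathepsin, was at 36.6 ± 4.03 against 1023 ± 80.8 CPM, Mmp2, a gelatinase, at 0.0242 against 295, and its inhibitor Timp2 at 27.2 against 294. Spp1, osteopontin, was at 965, 846 and 1093 CPM in NIH3T3 with no Neuro-2a count. Other bone and cartilage genes were divided. Ibsp, at 0, and Bglap, under 0.5 CPM, were low in both lines, while Runx2 and Sox9 were called lower in Neuro-2a, as Spp1 was.

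Contractile genes differed by amount rather than presence. Of 28 tested actin and SRF target genes 14 were lower, 2 higher and 12 not called (median -0.82). Cald1, caldesmon, was at 393 ± 8.43 against 1026 ± 20.3 CPM, and Tpm3, a tropomyosin, at 253 ± 6.2 against 659 ± 5.48. Flna, filamin A, was called lower at 603 ± 21.1 against 1062 ± 12.5, but was under the fold threshold when libraries were scaled by their totals alone (-0.72 on the log2 scale). Myh9, non-muscle myosin, was not called, at 2002 ± 88.9 against 2435 ± 153 CPM. Srf and its coactivators Mrtfa and Mrtfb were not called either.

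The YAP and TEAD genes had 19 of 23 tested lower, none higher and 4 not called (median -5.05). Yap1, the coactivator itself, was at 0, 0.341 and 0.0871 CPM in Neuro-2a and 140.0, 137 and 136 in NIH3T3 (log2 fold change -9.90, SE 0.192, adjusted p = 1.83e-23 in edgeR). Wwtr1, its paralogue TAZ, was lower by less, at 52.2, 52.2 and 49.8 against 188, 200.3 and 192. The DNA-binding partners were unequal: Tead4 was at 0, 0.171 and 0 CPM against 252, 291 and 269, whereas Tead1 was not called, at 268, 307 and 277 against 285, 283 and 264. The upstream kinases were near each other, with Lats1 and Stk4 not called and Stk3 called lower, at 129 ± 4.99 against 229 ± 3.1 CPM, but under the fold threshold when scaled by library totals alone (-0.73 on the log2 scale), while Lats2 shares most of its span with other genes and had almost no counts. Known targets of the pathway were low in every Neuro-2a library. Ccn1 and Ccn2, secreted matrix proteins, were at 0.775 against 92.8 and at 0.0242 against 31.1 CPM. Amotl2, a junction protein that binds YAP, was at 3.7, 4.69 and 4.01 against 132, 155 and 124. Myof, a membrane repair protein, was at 1.23, 2.73 and 2 against 1137, 1192 and 1137, and Crim1 at 6.31, 8.36 and 8.1 against 222, 234 and 214.

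The TEAD motif GGAATG, on either strand, was present in the 250 bases before the gene start for 12 of the 24 listed genes (50%), against 2510 of 21846 protein-coding genes (11.5%). The list was made to hold known targets of this pathway, so that difference may be built into the choice of genes. It says nothing about the RNA in these libraries, and binding was not measured. The upstream windows of Ccn1 and Amotl2 are given, 5′ to 3′ on the strand of the gene with the motif in capitals, because it is the element through which TEAD proteins are known to act (GRCm38, RefSeq sequence).
Ccn1, chr3:145649982-145650231, minus strand: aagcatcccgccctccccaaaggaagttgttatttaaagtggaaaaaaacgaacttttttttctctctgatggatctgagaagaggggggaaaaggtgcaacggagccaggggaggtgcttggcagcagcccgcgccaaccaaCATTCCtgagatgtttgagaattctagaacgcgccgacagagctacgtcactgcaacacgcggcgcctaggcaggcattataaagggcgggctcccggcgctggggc
Amotl2, chr9:102716422-102716671, plus strand: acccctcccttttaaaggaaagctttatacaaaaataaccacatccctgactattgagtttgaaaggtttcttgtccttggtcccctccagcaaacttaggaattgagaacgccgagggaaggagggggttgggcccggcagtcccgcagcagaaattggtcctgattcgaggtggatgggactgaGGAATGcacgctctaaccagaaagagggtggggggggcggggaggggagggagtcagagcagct
Both windows held the motif once, and in Ccn1 it read on the opposite strand. Ankrd1, another target, held none in this window and was also low, at 0.0726, 0.426 and 1.22 CPM in Neuro-2a and 25.1, 25.8 and 25.5 in NIH3T3.

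Neighbouring systems of the fibroblast surface were mixed. Of 9 tested caveola genes 6 were lower and 2 higher (median -4.14): Cav1, the coat protein, was at 72.8, 69.9 and 83.7 CPM in NIH3T3 and 0 in Neuro-2a, Cavin1 at 690.2, 711 and 634 against 9.87, 12.8 and 9.67, and Pacsin2, a membrane-bending protein, was higher in Neuro-2a at 467 ± 9.72 against 143 ± 3.41. Among TGF-beta genes 10 of 23 were lower and 7 higher (median -0.51), against 26.5% and 25.2% over all tested genes. Tgfbr2, the ligand-binding receptor, had no Neuro-2a count against 73.8, 62.8 and 73.4 CPM, while Tgfbr1, the signalling receptor, was slightly higher in Neuro-2a, at 168 ± 14.6 against 97.1 ± 5.09 (log2 fold change 0.79, and 0.72, under the threshold, without Neuro-2a control replicate 2). The latency proteins went both ways, with Ltbp1 at 0.0242 against 311 and Ltbp4 at 119 against 9.67. Integrins gave 9 lower and 6 higher of 21 (median -0.64). Itga5, the fibronectin receptor chain, was at 3.56, 5.37 and 4.71 against 203, 212 and 207 CPM, Itga6, a laminin receptor chain, at 550.5, 545 and 533 against 169.9, 181 and 173, and their common partner Itgb1 was not called, at 675 ± 16.5 against 514 ± 22.6. In the nuclear lamina 11 of 15 genes were not called (median 0.08), and Lmna, lamin A, was lower at 144 ± 1.37 against 551 ± 33.7 CPM.

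Receptor tyrosine kinases gave each line a set of its own. Of 36 tested 22 were lower in Neuro-2a, 8 higher and 6 not called (median -3.41, or -2.53 at the bound). Alk, the kinase mutated in familial neuroblastoma, was at 679, 797 and 714 CPM against 1.89, 0.71 and 0.735, and Ret, the GDNF receptor, at 451, 444 and 447 against 0, 0 and 0.306. Ntrk3, the neurotrophin-3 receptor, was at 233, 270.0 and 227 against 1.54, 1.1 and 0.857. In NIH3T3 Axl stood at 851, 908 and 849 CPM against 2.76, 2.05 and 2.88, Met, the hepatocyte growth factor receptor, at 119.9, 133 and 115 against 0, 0 and 0.0871, and Fgfr1 at 547, 516 and 515 against 27.3, 23.6 and 26.4. Igf1r was shared, at 240.3 ± 12.7 against 905 ± 34.2, and Ddr2, a collagen receptor, was not called.

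Notch genes were near balance, with 8 of 24 higher and 10 lower (median -0.21). Receptor and ligands exchanged members: Notch2 was at 15.6 ± 2.24 against 370.1 ± 23.3 CPM and Jag1 at 0.53 against 18.8, while the ligand Jag2 was at 50.5 ± 4.1 against 0.384 ± 0.357. Rbpj, the DNA-binding effector, was lower, at 72.6, 75 and 66.7 against 406, 456 and 407. Only 11 of 39 HOX genes, which record position along the body axis, were tested (median -7.70, or -2.89 at the bound). Hoxc4, Hoxc5 and Hoxc10 were higher in Neuro-2a, with Hoxc4 at 31.1, 34.6 and 34.7 against 9.09, 7.94 and 9.49 CPM, and 8 genes of the A, B and D clusters had counts in NIH3T3 and none in Neuro-2a. Among these Hoxa7 was at 31.4, 32.2 and 33.2 CPM and Hoxd8 at 21.7, 19.8 and 22. At least 75% of the span of 10 of the 39 HOX genes is shared on its strand, Hoxc10 among them, so their order within a cluster was not read.

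Long noncoding RNAs were lower in Neuro-2a in 22 of 31 tested, higher in 4 and not called in 5 (median -1.66, or -1.48 at the bound). Malat1, a nuclear speckle RNA, was at 34619, 34886 and 34348 CPM in NIH3T3 and 5892, 6333 and 5834 in Neuro-2a (log2 fold change -2.52, SE 0.0397). Neat1, the scaffold of paraspeckles, was at 5544, 5747 and 5103 against 198, 198 and 196. Both were among the 5 greatest falls in CPM, and no library of one line came near the other. Airn and Kcnq1ot1, imprinted antisense RNAs, were at 113 ± 10.5 against 562 ± 13.5 and 285 ± 15.3 against 712 ± 23. The imprinted cluster of Meg3, Rian and Mirg was nearly silent in Neuro-2a, at 0.105, 1.2 and 0.198 CPM, against 56.1, 40.7 and 31.7 in NIH3T3, and the coding gene of that cluster, Dlk1, was at 0.354 against 88.5.

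lincRNA genes took 1.35 to 1.44% of counts in Neuro-2a and 4.57 to 4.69% in NIH3T3, but without Malat1 and Neat1 the shares overlapped, at 0.718 to 0.768% and 0.753 to 0.765%, so that these RNAs made up nearly all of the gap. Of 1124 lincRNA genes tested 426 were lower and 315 higher, and of 1183 antisense genes 373 were lower and 209 higher, while of 14220 protein-coding genes 3521 were lower and 3744 higher. The shares lower were 37.9%, 31.5% and 24.8%, and those higher 28.0%, 17.7% and 26.3%, against 26.5% and 25.2% over all tested genes. Among the noncoding genes with the largest folds, the lincRNA Gm30835 was at 849, 922 and 864 CPM in Neuro-2a and 0.236, 0.0646 and 0.184 in NIH3T3. Gm26871, 5033428I22Rik and Gm48626 were at 125, 101 and 94.4 CPM with no NIH3T3 count. On the other side Gm49890 was at 156, 165 and 158 CPM in NIH3T3, Emx2os at 55.7, and Wincr1 at 45, all without a Neuro-2a count. Ptgs2os and Ptgs2os2, beside the prostaglandin synthase gene Ptgs2, were absent from Neuro-2a together with it, against 50.7, 40.3 and 504 CPM in NIH3T3. Gas5 and Snhg5, which host snoRNAs, diverged, with Gas5 at 113 ± 7.65 against 237 ± 20.02 and Snhg5 at 127 ± 6.54 against 44.9 ± 4.46 CPM.

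Xist, the RNA that silences an X chromosome, was the most abundant of the 4 listed noncoding RNAs that were higher in Neuro-2a, at 582, 606 and 569 CPM in Neuro-2a and 0.354, 0 and 0.367 in NIH3T3 (log2 fold change 11.17, SE 0.141, adjusted p = 7.82e-27 in edgeR). None of 8 Y-linked genes reached the filter, and together they held at most 0.145 CPM in a Neuro-2a library and 0.49 in an NIH3T3 library. Other X-linked noncoding RNAs of the same region were not higher: Jpx was at 8.68 ± 1.27 against 10.2 ± 1.04 CPM, and Ftx was lower, at 26.7 ± 2.99 against 53.4 ± 1.5. Mitochondrial RNA, 3.58 to 3.80% of counts in Neuro-2a and 4.05 to 4.81% in NIH3T3, was unequal by gene. The rRNA mt-Rnr2 was higher in Neuro-2a, at 2698, 2558 and 2283 against 434, 389 and 433 CPM, while mt-Co1 and mt-Nd1, subunits of the respiratory chain, were lower, at 4679, 4489 and 4541 against 10526, 11183 and 11989 and 1036, 904 and 973 against 5637, 5731 and 6665.

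**Figure D3:**
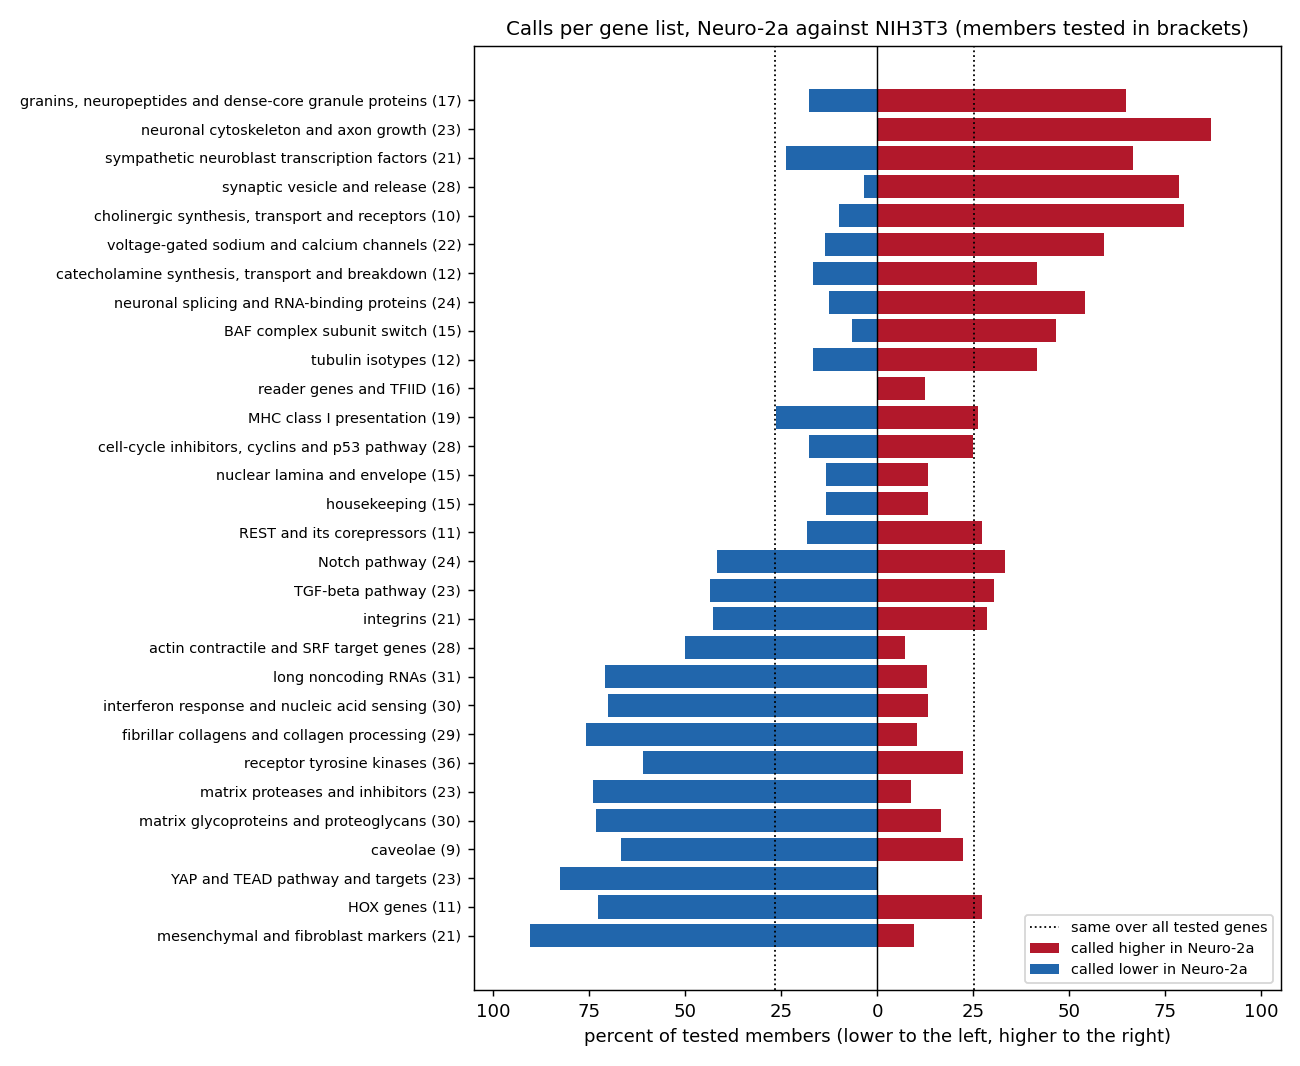
Percent of the tested members of each gene list that were called lower in Neuro-2a (bars to the left) or higher (bars to the right), with the number tested in brackets and lists ordered by their median log2 fold change. Dotted lines mark the shares over all tested genes, 26.5% lower and 25.2% higher; mesenchymal markers (19 of 21 lower) and YAP and TEAD genes (19 of 23 lower) lie at one end, and cytoskeleton genes (20 of 23 higher) at the other.

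Interferon and nucleic acid sensing genes were lower in 21 of 30, higher in 4 and not called in 5 (median -1.75). Ddx58, the RNA sensor RIG-I, was at 6.17, 8.1 and 8.36 CPM in Neuro-2a and 63.9, 62.8 and 70.7 in NIH3T3, and Eif2ak2, the kinase PKR, at 66.9, 71.6 and 72.8 against 204, 204 and 238. Stat2, of the interferon transcription complex, was at 28.9 ± 1.63 against 82.9 ± 1.89. Ifih1, which encodes the RNA sensor MDA5, was higher in Neuro-2a, at 2.54, 3.5 and 1.74 against 0.532, 0.388 and 0.122 CPM. MHC class I genes gave 5 higher and 5 lower of 19 (median 0.28), near the shares over all tested genes of 25.2% and 26.5%. H2-D1 was at 79.6 ± 8.2 against 272 ± 4.94, H2-K1 at 78.8 ± 0.969 against 25.7 ± 2.6, and the shared light chain B2m at 46.4 ± 8.38 against 130.2 ± 18.3. The H2 genes are closely related and come in strain-specific alleles, so their counts are uncertain.

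Cell-cycle genes differed in a few regulators. Of 28 tested cell-cycle genes 7 were higher, 5 lower and 16 not called (median 0.18), against 25.2% higher and 26.5% lower over all tested genes. Mki67, a marker of dividing cells, was not called, at 1094 ± 41.9 against 713 ± 26.5 CPM. Ccnd2, a D-type cyclin, was at 413, 364 and 395 CPM in NIH3T3 with no Neuro-2a count, and Cdk6, a kinase that D cyclins activate, was at 237, 238 and 232 against 0, 0.171 and 0.0871. The paralogues Ccnd1 and Cdk4 were not called, at 221 and 142 CPM in Neuro-2a against 308 and 126. Cdkn2a, which encodes the tumour suppressors p16 and ARF, was the reverse, at 34.5, 34.9 and 28.9 CPM in Neuro-2a and 0 in NIH3T3, at least 177-fold higher. The p53 targets Mdm2 and Cdkn1a were lower in Neuro-2a, at 119.8 ± 0.92 against 338 ± 11.9 and 17.6 ± 1.79 against 103 ± 5.8, and Trp53 itself was not called.

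Genes used by every cell were mostly not called. Of 15 housekeeping genes 11 were not called (median 0.06). Actb, cytoplasmic actin, was at 1371 ± 55.4 against 1775 ± 85.1 CPM and was not called, while Gapdh, a glycolytic enzyme, was lower, at 265, 212 and 245 against 483, 487 and 526. Of 16 tested TFIID and reader genes 14 were not called (median 0.31). Taf3, whose domain serves as the reader in the other libraries of these lines, was at 165, 189 and 166 against 136, 129 and 125 CPM and was not called. Cbx7, a Polycomb subunit, was higher, at 353, 381 and 357 against 12.5, 7.56 and 6.06. Taf9 had no count in either line and lies wholly within other genes on its strand.

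Markers of other cell types were scattered and incomplete. Of 9 glial markers 3 were higher in Neuro-2a, Mbp and Erbb3 among them, with a summed level of 40.1 to 47.8 CPM against 4.78 to 5.43, and Sox10 and Foxd3, which define the lineage, were at 0. Of 9 immune markers Cd74 alone was higher, at 46.3 CPM, with Ptprc at 0 in Neuro-2a. Of 9 skeletal muscle markers Myh3, an embryonic myosin, reached 537, 508 and 507 CPM in Neuro-2a against 1.42, 0.129 and 0.98, while Myod1 and Myog were at 0 in both lines. Of 9 epithelial markers Grhl2 was at 18 against 0.0609 CPM with Krt5 and Cldn4 at 0. Of 8 adipocyte markers Pparg was at 34.6 against 0.108 CPM and Lpl, called lower, at 0.0284 against 7.26, with Cebpa at 0. Of 8 endothelial markers Cdh5 was at 0.0284 against 6.76 CPM and Tek, called higher, at 2.46 against 0.851, with Tie1 at 0. Of 7 bone and cartilage markers tested 3 were higher and 3 lower (median 1.63, or -2.79 when filterByExpr dropped the low genes). The higher ones, Alpl, Sp7 and Col2a1, were low in both lines, at 1.94, 1.05 and 1.16 against 0.0843, 0.0408 and 0.367 CPM, while Spp1, Runx2 and Sox9 were at 0, 4.79 and 29.5 against 968, 397 and 202. The part of other cells in these values was not tested beyond these levels.

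Some differences came as runs of neighbouring genes. Runs were sought among the 15499 tested genes at 1 CPM or more in a line. In Neuro-2a 18 runs of at least 4 neighbours in a row lay under 0.1 CPM, with 89 genes in all. In NIH3T3 11 runs with 61 genes lay under it. Noncoding genes are counted in these runs, and the run of 4 that starts at Gm5953 on chromosome 12 held 0 protein-coding genes. How many runs scattered absences alone would give was not tested. On chromosome 16 Vps26c, of endosomal sorting, and Dyrk1a, a dosage-sensitive kinase, were at 21.7, 26.7 and 28.3 and 193, 195 and 177 CPM in NIH3T3 and had no count in any Neuro-2a library. Their neighbours on either side had counts: Ttc3 was at 366, 393 and 369.5 CPM in Neuro-2a and Kcnj6 at 25, 26.4 and 24.6. On chromosome 17 Prkd3, Cdc42ep3, Rmdn2 and Cyp1b1 were at 103, 92.6, 25.4 and 8.8 CPM in NIH3T3 and at 0 in all Neuro-2a libraries, between Ndufaf7 (12.2 CPM in Neuro-2a) and Atl2 (95.6). On chromosome 4 Spsb1 and H6pd, an enzyme of the endoplasmic reticulum, were at 54.5 and 57.4 CPM in NIH3T3 and 0 in Neuro-2a. A run of 8 genes on chromosome 1 held Il1r1, Il1rl2, Il1rl1, Il18r1 and Il18rap, of the interleukin-1 receptor family. Slc9a4, Mfsd9 and Tmem182, which are not of that family, were also in it. Il1rl1, the receptor of interleukin-33, had the largest fall of any gene under the naming rule. It was at 1815, 1705 and 1980.2 CPM in NIH3T3 and 0 in Neuro-2a, at least 7484-fold lower. In that run Il1r1 was at 0.0242 against 146, and the gene before it, Map4k4, was at 731 CPM in Neuro-2a. Tspan11, a tetraspanin with the next largest fall, at 1358, 1427 and 1336 CPM in NIH3T3 and 0 in Neuro-2a, lay in a run of 5.

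In NIH3T3 the longest run was that of the Rhox homeobox genes on the X chromosome, 16 genes with 4 counts in all over the NIH3T3 libraries. Rhox2d was at 82, 63.9 and 72.3 CPM in Neuro-2a, but these genes are near-identical copies and their counts are uncertain. Hand2 and its noncoding neighbours formed another, between Fbxo8 (19.5 CPM in NIH3T3) and Sap30 (18.7). Around Cdkn2a the pattern was narrower: Gm12609 and Gm12610, on one side, were at 6.98 and 24.6 CPM in Neuro-2a and 0.0646 and 0.659 in NIH3T3, and Mtap, a methionine salvage enzyme on the other side, was at 55.4, 51 and 69.3 CPM in Neuro-2a and 273, 266 and 279 in NIH3T3. DNA was not measured, and what sets these runs was not tested.

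**Figure D4:**
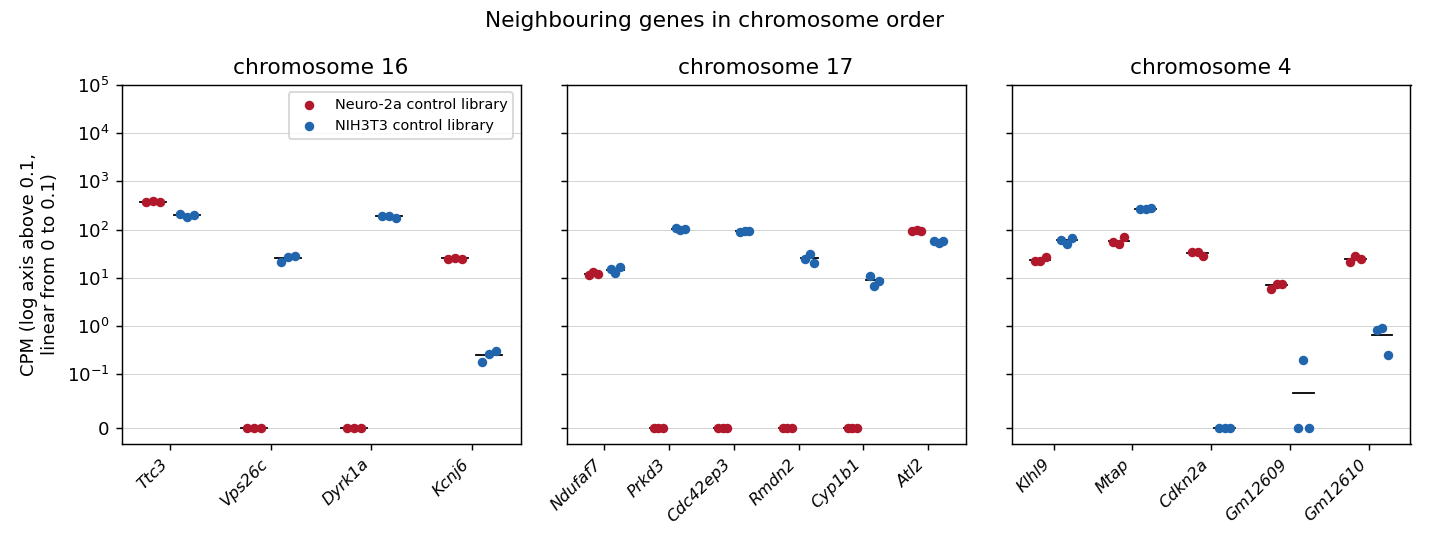
CPM of neighbouring genes on chromosomes 16, 17 and 4 in each control library, in chromosome order, on a log axis above 0.1 and a linear one from 0 to 0.1, with black bars at the mean of 3. Vps26c and Dyrk1a, and Prkd3 to Cyp1b1, were at 0 in all Neuro-2a libraries between genes that had counts, and Cdkn2a was at 0 in all NIH3T3 libraries next to Mtap at 272 CPM.

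Genes shared by the lines leaned by chromosome. Over 8688 protein-coding genes with at least 5 CPM in both lines, the median log2 fold change was 0.60 on chromosome 15 and 0.47 on chromosome 13. It was -0.51 on chromosome 19 and -0.28 on chromosome 17. On chromosomes 8, 9, 10, 11 and 16 it lay between 0.17 and 0.26, and on 11 other chromosomes between -0.13 and 0.05. On chromosome 15, 136 of 345 such genes were called higher and 30 lower, and on chromosome 19, 23 of 308 were higher and 121 lower. For comparison, chromosome 2, with a median of 0.04, had 119 of 711 higher and 103 lower. Chromosome 4 broke within itself: the genes between 100 and 110 Mb had a median of -1.09 (n = 39 genes) and those between 130 and 140 Mb one of 0.86 (n = 86), although the chromosome as a whole was at 0.03. On chromosome 13 the median was -0.13 between 20 and 30 Mb and 1.03 between 110 and 120 Mb. These are descriptions over genes, which are not replicates, and DNA was not measured.

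**Figure D5:**
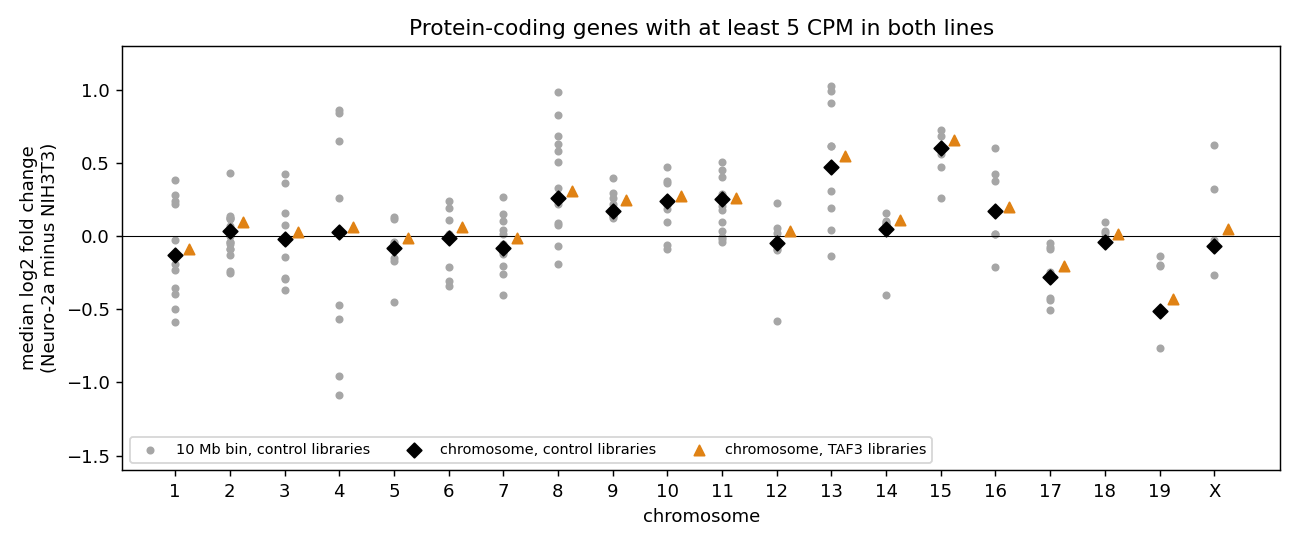
Median log2 fold change, Neuro-2a minus NIH3T3, of protein-coding genes with at least 5 CPM in both lines, for each chromosome in the control libraries (diamonds) and the TAF3 libraries (triangles) and for 10 Mb bins with at least 20 such genes (grey). Chromosomes 13 and 15 lie above 0 and 17 and 19 below it in both sets of libraries, and the bins of chromosome 4 run from -1.09 to 0.86.

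The TAF3 libraries of the same lines, 3 of each with no library in common with the controls, gave the line difference again with a reader present in both. Of 20112 genes tested there 9958 were called (49.5%), 4632 higher in Neuro-2a (23%) and 5326 lower (26.5%). Of 4569 genes called higher in the controls and tested there, 3924 were called higher again (85.9%) and 20 lower. Of 4795 called lower, 3916 were called lower again (81.7%) and 3 higher. Neuro-2a TAF3 replicate 1 stood apart from its replicates, and without it the counts were 4522 higher and 5680 lower. Among genes named above, the following were called on the same side: Hand2 was at 241 CPM with TAF3 in Neuro-2a against 0 in NIH3T3, Chgb at 1598 against 0.527, Prrx1 at 0.334 against 680.4, and Malat1 at 7067 against 35735. Others were not: Eng, Stk3, Ftx, Atl2, Cntnap2 and Col2a1, called in the controls, were not called with TAF3, with Eng at 16 against 10.1 CPM, and Tek was called on the other side. By list, 20 of 26 cytoskeleton genes were called higher there, 19 of 22 mesenchymal genes lower, 19 of 24 YAP and TEAD genes lower, and 19 of 32 long noncoding RNAs lower. Other lists moved: 5 of 13 cholinergic genes were called higher there (median 0.88), against 8 of 10 in the controls (median 2.38), and the median of MHC class I presentation was -0.07 there and 0.28 in the controls. Of the genes without counts in 1 line, Dyrk1a was at 0.0324 against 167 CPM and Prkd3 at 0.0278 against 81.5, and Cdkn2a was at 37.1 against 0. The chromosome medians were 0.66 for chromosome 15 and -0.43 for chromosome 19 in these libraries. Taf3 itself stood at 1714 CPM in Neuro-2a and 8880.4 in NIH3T3 in these libraries, which carry a TAF3 construct.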

How the data were processed

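The authors trimmed reads with fastp 0.23.1 after FastQC 0.11.8, aligned them with HISAT2 2.1.0 to mm10 and counted them per gene with featureCounts 2.0.1. The deposited values are raw counts per gene, and the strand setting is not given in the sources used here. The 6 control libraries were joined by gene identifier. Genes with more than 18 counts in all were kept and tested with edgeR 4.0.16 in R 4.3.3 (quasi-likelihood, TMM factors, Benjamini-Hochberg adjustment), and calls needed adjusted p under 0.05 with 0.75 or more of change on the log2 scale. The study's methods give these thresholds for enrichment, and here they were applied in either direction. The pipeline was tested on simulated data. Alternatives were DESeq2 1.42.0, other scalings, filters and thresholds, thinning, a replicate block and leaving out each library. The 6 TAF3 libraries were fitted in the same way, and an interaction was fitted over all 12. Floors cover counting error only.

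Genes were named by a rule: up to 6 members of each list by difference in mean CPM, the 10 largest folds in each direction with a mean of at least 100 counts, the 5 largest differences in CPM, the 5 largest folds among long noncoding RNAs, and Taf3, Gapdh and Actb. The members and gene lists were chosen with earlier results of these data known. Other list members, the genes of neighbouring runs and those with RE1 matches were named after their values were seen, as were the rule for runs, the chromosome bins and both motif searches. Motifs were read from the RefSeq GRCm38.p6 genome, and gene positions are as in the deposited tables. Libraries of human cells and the other assays were not used here, and a few list members and 1 promoter sequence are not reported here.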

Additional observations from a re-analysis of the deposited data

Results flagged for a closer look

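Among genes called in both sets of libraries, 23 were called higher in one line in the controls and higher in the other with the TAF3 reader, and for 22 of them the difference between the 2 contrasts passed a test of the interaction in edgeR over the 12 libraries, also when Neuro-2a TAF3 replicate 1 was left out. These genes were picked for opposite calls in the same libraries, so that test is not independent of the choice. The exception was Pcsk4 (adjusted p = 0.0768 in edgeR). In 20 of the 23 the gene was higher in Neuro-2a controls. Hacd4, a fatty acid elongation enzyme gene, stood at 3.86 CPM in Neuro-2a and 1.08 in NIH3T3 controls, and at 4.31 and 13.5 CPM with TAF3 (interaction of -3.48 on the log2 scale, adjusted p = 2.19e-05 in edgeR). Scml2, a Polycomb-related gene, stood at 9.44 and 2.56 CPM in the controls and at 10.5 and 20.4 with TAF3. Tek, an endothelial receptor kinase, stood at 2.46 and 0.851 CPM, then at 2.81 and 11.6. In these 3 genes the Neuro-2a level moved little between the sets of libraries and the NIH3T3 level was several times higher with TAF3. The antisense gene Gm15261 ran the other way, at 0.598 and 2.84 CPM in the controls and 14.4 and 7.78 with TAF3. More genes had a count in the NIH3T3 TAF3 libraries (22963 to 23862) than in the NIH3T3 controls (20609 to 20988). In Neuro-2a the ranges were 19378 to 21650 with TAF3 and 19831 to 20018 in the controls. The 23 genes lay at low CPM, and whether they followed this wider shift was not tested.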

How the results depend on the processing

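The split between the lines held its size under the other tests, scalings and filters tried, with 4218 to 5052 genes higher and 4239 to 5054 lower over DESeq2, DESeq2's size factors, library totals alone, no filter, filterByExpr, thinning and a fit of all 12 mouse libraries, and 6682 and 6698 with no fold threshold. At a log2 fold change of at least 2 the counts were 2665 and 2966, fewer by construction. With library totals alone 52.5% of the calls were higher, against 48.7%, and the median of all tested genes was 0.06 rather than -0.04. Leaving out each library in turn gave 4394 to 4700 higher and 4660 to 4898 lower in the controls, and 4316 to 4522 and 4777 to 5680 with TAF3. Same-numbered libraries did not deviate together (r of 0.0137, 0.0527 and 0.0264), and with a replicate block the counts were 4548 and 4723 in the controls and 4375 and 4938 with TAF3. Over 309 genes examined, 4243 values stayed on their side of the threshold, 41 no longer passed, 4 newly passed and 15 changed sign. All 15 belonged to genes that were not called, and the cause was not tested. When single libraries were left out, the log2 fold change of Ehmt1 ran from -0.0199 to 0.0428, of Gpc6 from -0.0446 to 0.0965, of Tead1 from -0.0387 to 0.0645 (-0.00243 without NIH3T3 control replicate 3), of Tbk1 from -0.0737 to 0.0014, and of Chrnb1 from -0.167 to 0.277. With library totals alone Stk4 was at 0.042, Actl6a at 0.0047 and Tbk1 at 0.0818. Chrnb1, which rests on few counts, was at -0.0166 in DESeq2, -0.0154 with its size factors and -0.011 under filterByExpr. The median of the bone and cartilage markers was -2.79 under filterByExpr, which drops low genes, against 1.63. A further 16 list medians and 6 list counts moved without a change of direction. Depth limits the genes at 0: a floor of 3 counts was 0.245 CPM in Neuro-2a and 0.185 in NIH3T3.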

Other observations

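Genes of other RNA classes also leaned to NIH3T3. Of 21 small nuclear RNA genes tested 11 were lower in Neuro-2a and 3 higher, with a median log2 fold change of -1.99. Of 45 miRNA genes 16 were lower (35.6%) and 4 higher, against 26.5% lower and 25.2% higher over all tested genes. The method selects poly(A) RNA, so these classes were counted only in RNA that had passed that step. Unprocessed pseudogenes that are transcribed leaned to Neuro-2a, with 21 of 61 higher (34.4%, against 25.2% over all tested genes) and 11 lower. By the span of a protein-coding gene, the share of lower calls was 26.4% under 2 kb, 22.5% at 10 to 30 kb, 34.0% at 100 to 300 kb and 33.8% above 300 kb, and the share of higher calls was 20.1%, 25.9%, 27.8% and 32.4% in the same bins.

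Other runs of neighbouring genes held neuronal, homeobox and other genes. Astn1 and Brinp2, neighbours on chromosome 1 that act in neuronal migration and differentiation, were at 198 and 60.8 CPM in Neuro-2a and 0 and 0.0197 in NIH3T3. Rragb and Klf8, neighbours on the X chromosome, were at 39.1 and 29 CPM against 0 and 0.0204. Irx1 and Irx2, homeobox genes on chromosome 13, were at 0 and 0 CPM against 29.7 and 23.1. Sema5a, a guidance protein gene on chromosome 15, was at 0.0859 against 394 CPM, although genes of that chromosome leaned to Neuro-2a. Apart from the runs, Scrt1, a neuronal repressor with an RE1 match, was at 30.8, 29.3 and 29.7 CPM in Neuro-2a and 0.0591, 0.84 and 0 in NIH3T3. These genes were picked after their values were seen.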
